A study of Homo sapiens with 17 samples.

Results

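The receptors for the GDNF family and for the neurotrophins tell developing nerve cells whether to live, die or grow axons. RET, GFRA1, GFRA2, GFRA3, NTRK2, NTRK3, NGFR and SORT1 were taken by gene symbol, with earlier results of these data known. They make up 8 of the 60662 genes that both count tables hold. RET is a tyrosine kinase that does not bind its ligands alone: a GFRα protein at the cell surface binds the ligand and brings RET to it, GFRA1 for GDNF, GFRA2 for neurturin and GFRA3 for artemin. NTRK2 (TrkB) and NTRK3 (TrkC) are the kinases for BDNF and NT-3, NGFR (p75) binds all neurotrophins without kinase activity, and sortilin, the product of SORT1, sorts proteins between the Golgi, endosomes and surface and forms a receptor for proneurotrophins with p75. In neuroblastoma, a tumor of the sympathetic nerve lineage, these receptors are known for their ties to survival, death and differentiation of the tumor cells, and retinoids have long been known to raise RET and NTRK2 in several of its cell lines.

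The libraries came from CHP-134, a human neuroblastoma line with amplified MYCN, and were made to follow its response to retinoids in the dish and in tumors. In culture, 2 libraries were of solvent controls (DMSO), and ATRA, the all-trans form of retinoic acid, was given at 2 µM for 1 day (2 libraries), 3 days (2 libraries) or 6 days (2 libraries). The tumor libraries were 5 of untreated controls and 4 of mice given 13-cis-retinoic acid by mouth at 25 mg/kg, with 2 doses per day (RA tumors). All tumors grew from luciferase-labelled CHP-134 cells placed under the skin of adult female athymic nude mice, which lack T cells but keep other immune cells. Culture and tumor libraries were made with different kits for removal of ribosomal RNA, so culture, host tissue and kit cannot be told apart in any comparison of tumors with cells. The study's text says that most CHP-134 cells have died by 6 days of ATRA, so these libraries are of surviving cells. In bulk RNA, fewer cells of a type and less RNA per cell cannot be told apart.

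Total counts were 31607051 to 39422897 in the culture libraries and 17266558 to 29078889 in the tumors. The labelled cell type was checked with 11 neuroblastoma genes (HAND2, GATA3, TH, DBH, MYCN and others), which summed to 3031 to 4741 CPM (counts scaled to a common library size) in every library. Of markers of other cells, the 8 fibroblast genes summed to 118.8 CPM in control tumor 4, against 25.9 to 52.2 CPM in the other 8 tumors. The Schwann cell gene SOX10 was at 0 counts in all culture groups and present in the tumors, where the 8 Schwann cell genes summed to 8.17 to 10.5 CPM in controls and 10.1 to 12.7 CPM in RA tumors. In culture that sum was 7.87 to 9.94 CPM until 3 days and 14.3 to 16 CPM at 6 days. The 7 endothelial genes, of which 1 reached 1 CPM, summed to 1.58 to 2.06 CPM in DMSO and to 144.6 to 155.9 CPM at 6 days, with TEK and EMCN at 0 counts there, and the part of other cells in the values of culture was not tested. The 7 leukocyte genes summed to at most 4.10 CPM. A removal of mouse reads is not described in the sources used here, and the part of mouse RNA in the tumor values was not tested. The 2 culture replicates of a group differed by 1.97 to 3.82 times the counting variance over all genes (chi-square per degree of freedom), against 5.44 to 37.6 times between tumors of a group. The study calls replicates of this kind independent, and the labels do not say how they were grown, so p-values in culture measure the spread between these samples, whatever its source.

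Levels below are CPM on 1 scale for all 17 libraries, fold changes come from edgeR's quasi-likelihood test, and FDR is its p-value adjusted by the Benjamini-Hochberg method over all genes tested. Values after ± are SDs for CPM and SEs for log2 fold changes. A gene was called when its FDR was under 0.05 and its change more than 2-fold. Counts are per gene, so full-length and truncated TrkB or TrkC, or the forms of RET, are summed.

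The upstream sequences of 2 members are shown, RET with the largest rise of the 8 genes and SORT1 with no call in any comparison. RefSeq windows of 6 of the 8 members were examined (build GRCh38.p14). Those of NGFR and of GFRA2, the member called lower at 6 days, were not examined. The 250 bases before the start site are given 5′ to 3′ on the gene's strand. Capitals mark the GC box GGGCGG and the hexamer AGGTCA, the core letters bound by retinoic acid receptors, on either strand.
RET, chr10:43076819-43077068 (+): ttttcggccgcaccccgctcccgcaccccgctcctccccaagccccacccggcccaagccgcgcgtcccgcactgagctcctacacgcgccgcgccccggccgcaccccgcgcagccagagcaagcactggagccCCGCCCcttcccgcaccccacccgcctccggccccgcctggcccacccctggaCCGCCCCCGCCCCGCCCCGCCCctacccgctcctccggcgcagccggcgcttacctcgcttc
SORT1, chr1:109397919-109398168 (-): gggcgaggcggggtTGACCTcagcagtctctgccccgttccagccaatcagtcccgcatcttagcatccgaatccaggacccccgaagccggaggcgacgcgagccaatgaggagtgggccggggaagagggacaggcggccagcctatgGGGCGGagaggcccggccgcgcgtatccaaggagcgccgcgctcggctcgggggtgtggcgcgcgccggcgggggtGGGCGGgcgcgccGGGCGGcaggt
The RET window was 79.6% G and C and held 5 GC boxes, all on the opposite strand, of which neighbours in the run of 4 near the start site touch or share a base. It held no AGGTCA and none of its direct repeats with spacers of 1, 2 or 5 bases (DR1, DR2 and DR5). The SORT1 window held 3 GC boxes and 1 hexamer, 236 bases before the start site on the opposite strand. Of 35116 windows of this length, 42.6% held a GC box and 12.1% the hexamer, so both are common, and a match or its absence is a description of these letters only.

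RET had the largest rise of the tested members at 1 and 6 days, and NGFR that at 3 days. The DMSO libraries held 0.82 and 0.84 CPM (30 and 27 counts), those of 1 day of ATRA 4.00 and 4.44 CPM, those of 3 days 3.28 and 2.79 CPM, and those of 6 days 27.5 and 27.0 CPM. No library of a treated group overlapped DMSO, a gap not counted over all genes. The course had 2 steps up with none between 1 and 3 days. At 1 day the log2 fold change was 2.36 ± 0.16 (FDR 3.28e-14), and RET and NGFR were the 2 of 7 tested members called, both higher, against 2.74% of all genes (1.95% higher and 0.791% lower). From 1 to 3 days RET was lower by a log2 fold change of −0.46 ± 0.13 (FDR 0.00462), which is under the fold threshold. From 3 to 6 days it rose again by 3.10 ± 0.10 (FDR 6.24e-25), to 31.9-fold above DMSO. RET (ENSG00000165731.19) lies on hg38 chromosome 10, 43077064 to 43130351, on the plus strand, and shares no exon with another annotated gene.

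**Figure D1:**
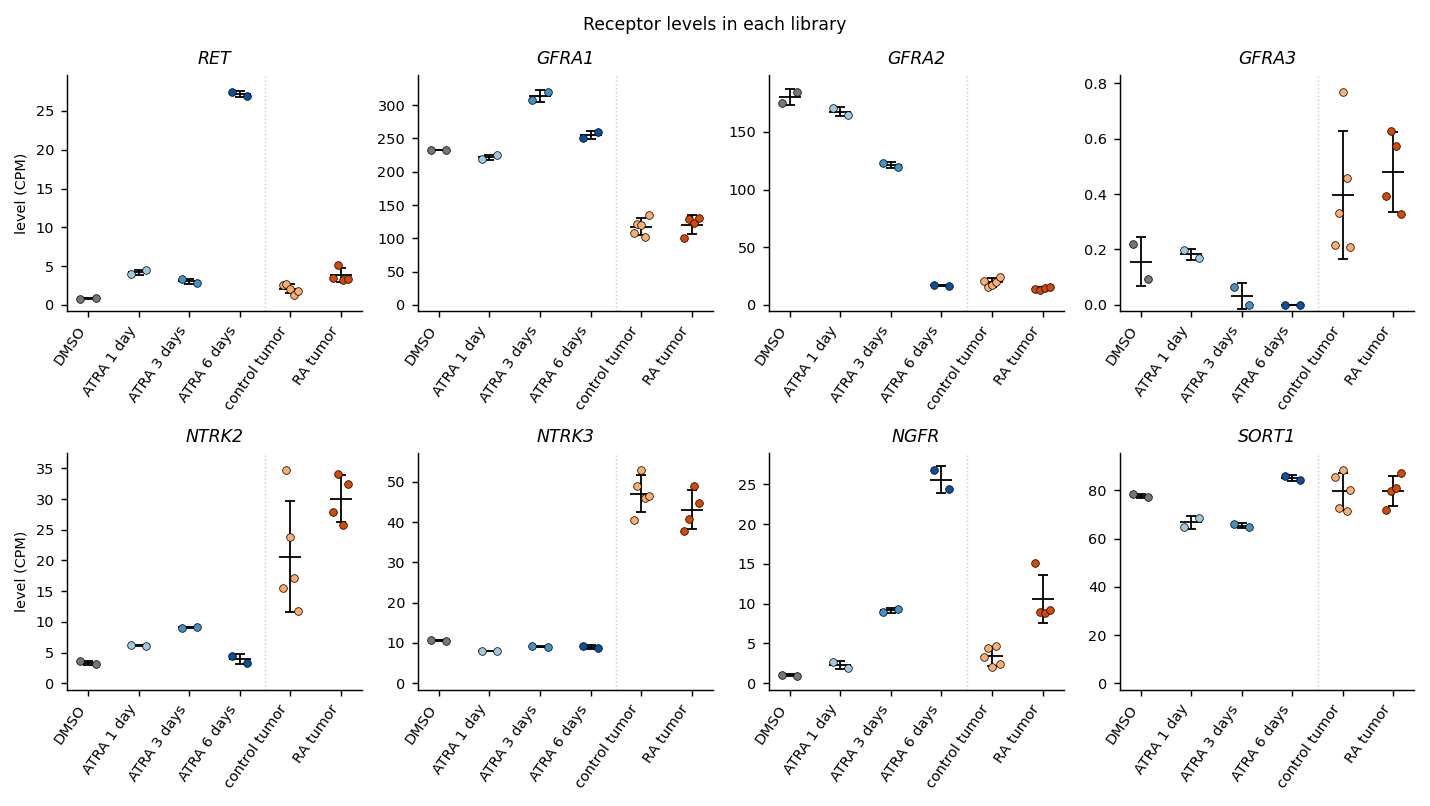
TMM-scaled CPM of the 8 receptor genes in each of the 17 libraries (points), with group means and SDs (bars), on a separate linear axis for each gene. RET and NGFR are highest at 6 days of ATRA, GFRA2 falls between 3 and 6 days and is low in all tumors, NTRK2 peaks at 3 days in culture, and SORT1 stays between 64.7 and 88.5 CPM.

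The co-receptors of RET did not follow it. GFRA1, the GDNF co-receptor, moved little in culture, with 232.1 and 232.4 CPM in DMSO, 218.9 and 224.5 CPM at 1 day, 307.4 and 320.3 CPM at 3 days and 251.2 and 259.3 CPM at 6 days. Its peak at 3 days was a log2 fold change of 0.47 ± 0.02 (FDR 3.24e-18) and was not called. GFRA2, the neurturin co-receptor, went the other way: it was at 175.3 and 184.9 CPM in DMSO, 170.5 and 164.8 CPM at 1 day, 122.8 and 119.5 CPM at 3 days and 17.4 and 16.4 CPM at 6 days. Most of the fall came late, with log2 fold changes against DMSO of −0.09 ± 0.03 at 1 day, −0.54 ± 0.03 at 3 days and −3.45 ± 0.04 at 6 days (FDR 2.23e-39), and of −2.91 ± 0.04 from 3 to 6 days. The late fall of GFRA2 and the second rise of RET thus fell in the same interval. GFRA3, the artemin co-receptor, was at the edge of detection and did not pass the filter on low counts in culture: the DMSO libraries held 8 and 3 counts, those of 1 day 7 and 6 counts, those of 3 days 2 and 0 counts, and both of 6 days 0 counts. Against a floor of 3 counts over the 6-day group, its DMSO level was at least 3.28-fold higher, which covers counting error only.

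Per kilobase of merged exons, GFRA2 made up 58.1% and 59.4% of the summed GFRA1, GFRA2 and GFRA3 level in the DMSO libraries and 58.8% and 57.4% at 1 day. By 3 days its share was 42.4% and 40.8%, and the libraries of 6 days had 11.3% and 10.5%. Co-receptor RNA was thus mostly GFRA2 with DMSO and nearly all GFRA1 at 6 days, with GFRA1 at 88.7% and 89.5%. The summed co-receptor level stood at 573-fold that of RET in both DMSO libraries, and at 8.67-fold and 9.05-fold at 6 days. At 1 day the ratio was 113 and 100, and at 3 days it was 137 and 163, higher than at 1 day. In control tumors the ratio was 47.4 to 89.2 with a GFRA2 share of 18.6% to 26.1%, and in RA tumors it was 25.6 to 40.3 with a share of 15.3% to 19.7%. The ratios of the 2 tumor groups did not overlap, while their GFRA2 shares did. These ratios are descriptions of RNA levels per kilobase and were not tested.

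**Figure D2:**
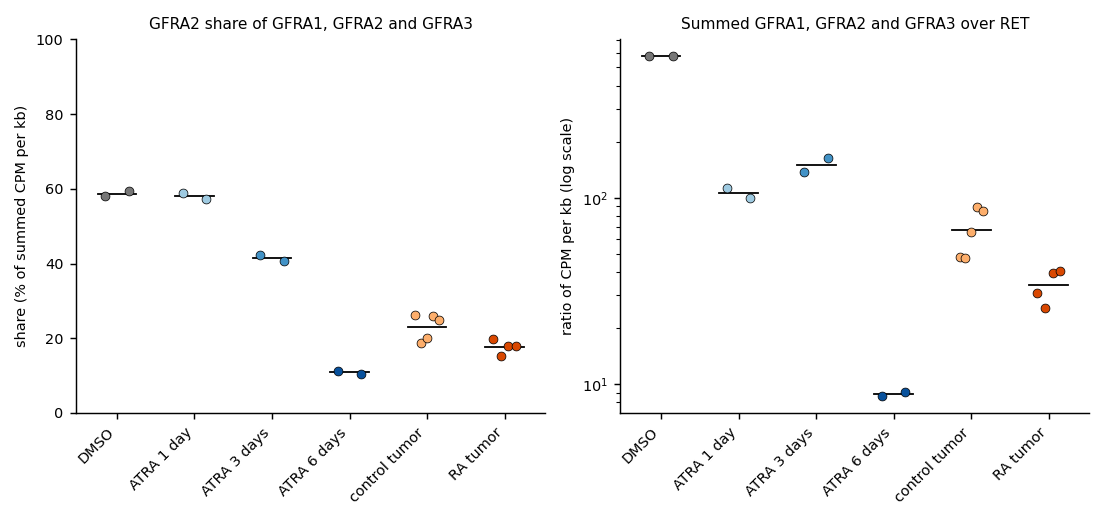
Left, GFRA2 as a percentage of the summed CPM per kilobase of GFRA1, GFRA2 and GFRA3; right, the same sum divided by the CPM per kilobase of RET, on a log axis, with 1 point per library and lines at group means. The share of GFRA2 falls from 58.8% with DMSO to 10.9% at 6 days, and the ratio to RET falls from 573 to 8.86, with the tumors between these ends.

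The Trk genes moved less in culture. NTRK2 was at 3.58 and 3.06 CPM in DMSO, 6.17 and 6.14 CPM at 1 day, 9.02 and 9.16 CPM at 3 days and 4.50 and 3.30 CPM at 6 days. It was raised in passing: the 3-day libraries were above all others, and those at 6 days overlapped DMSO. The log2 fold change was 0.90 ± 0.14 at 1 day (FDR 2.27e-06, not called), 1.48 ± 0.13 at 3 days (FDR 8.38e-12) and 0.19 ± 0.15 at 6 days (FDR 0.243), with a fall of 1.29 on the log2 scale from 3 to 6 days (FDR 7.27e-11). RET, NGFR and NTRK2 were the 3 of 7 tested members called at 3 days, all higher, against 7.87% of all genes (5.45% higher and 2.43% lower). NTRK3 stayed between 8.03 and 10.75 CPM in all 8 culture libraries and was called at no time. Its log2 fold changes were −0.39 ± 0.09 at 1 day, −0.20 ± 0.09 at 3 days and −0.27 ± 0.09 at 6 days.

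NGFR rose at each time. Its levels were 1.09 and 0.91 CPM in DMSO (40 and 29 counts), 2.62 and 1.93 CPM at 1 day, 8.95 and 9.37 CPM at 3 days and 26.8 and 24.4 CPM at 6 days. The log2 fold changes were 1.19 ± 0.19 at 1 day (FDR 4.88e-06), 3.22 ± 0.15 at 3 days (FDR 4.99e-20) and 4.63 ± 0.13 at 6 days (FDR 1.29e-27). The call at 1 day was lost without ATRA 1 day replicate 1 (0.96) and in a fit of all 17 libraries (1.18, FDR 0.165). Each step was called, 2.03 ± 0.13 from 1 to 3 days (FDR 6.52e-16), where it was the 1 of 7 members called against 4.09% of all genes (2.87% up and 1.22% down), and 1.41 ± 0.09 from 3 to 6 days (FDR 2.60e-16). In that last interval 4 of 7 members were called (RET and NGFR up, GFRA2 and NTRK2 down), against 21.1% of all genes (12.7% up and 8.41% down). NGFR is overlapped on the opposite strand by an unnamed gene over 22.3% of its exon bases and by NGFR-AS1 over 4.90%. Since the strand setting of the counting is not given in the sources used here, reads of these genes cannot be told apart.

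SORT1, whose product partners p75, varied little. It was at 78.4 and 77.2 CPM in DMSO, 64.8 and 68.6 CPM at 1 day, 66.1 and 64.7 CPM at 3 days and 86.1 and 84.2 CPM at 6 days. The small dip had a log2 fold change of −0.21 ± 0.04 at 1 day (FDR 2.60e-05), and the value at 6 days was 0.10 ± 0.04 (FDR 0.0147), both far under 2-fold. Per kilobase, SORT1 stood at 32.6-fold and 38.6-fold the level of NGFR in the DMSO libraries and at 1.46-fold and 1.57-fold at 6 days. At 6 days against DMSO 3 of 7 tested members were called (RET and NGFR up, GFRA2 down), against 31.2% of all genes (18.8% up and 12.3% down). The median log2 fold change of the 7 was 0.10 and that of all genes 0.04.

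**Figure D3:**
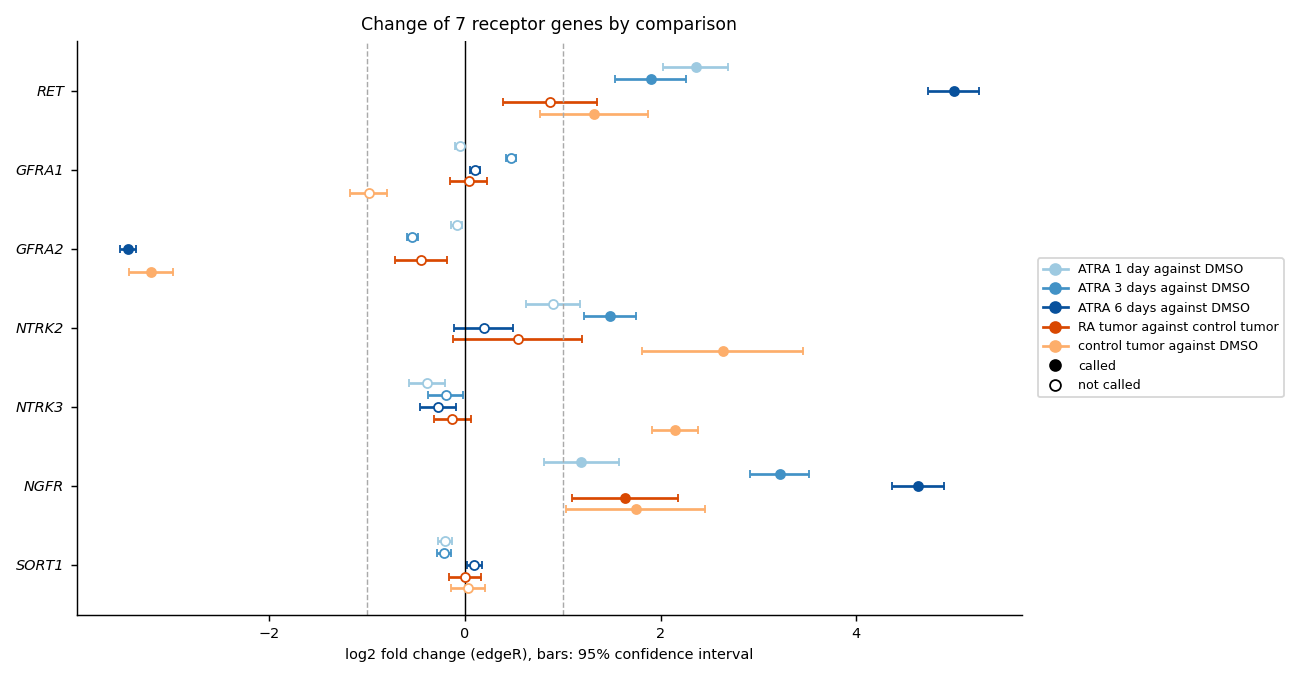
Log2 fold changes with 95% confidence intervals of the 7 members that passed the filter in culture, in 5 comparisons. Filled points were called (FDR under 0.05 and beyond the dashed lines at 2-fold). RET reaches 5.00 and NGFR 4.63 at 6 days of ATRA, GFRA2 lies at −3.45 there and at −3.21 in control tumors against DMSO, and in RA tumors against control tumors the filled point is that of NGFR.

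Compared per kilobase of merged exons, the order of the levels in DMSO was GFRA2 (31.2 ± 1.18 CPM per kb), GFRA1 (21.8 ± 0.02), SORT1 (8.52 ± 0.10), NTRK3 (0.40 ± 0.0066) and NGFR (0.24 ± 0.032), followed by NTRK2, RET and GFRA3 at 0.10, 0.093 and 0.078, whose ranges overlapped from each to the next. At 6 days it was GFRA1 (23.96 ± 0.54), SORT1 (9.33 ± 0.14), NGFR (6.18 ± 0.41), RET (3.04 ± 0.043), GFRA2 (2.92 ± 0.12), NTRK3 (0.34 ± 0.017), NTRK2 (0.12 ± 0.025) and GFRA3 at 0. RET and GFRA2 had come close, with ranges of 3.005 to 3.065 and 2.841 to 3.003 CPM per kb. In control tumors GFRA1 (11.01 ± 1.21) and SORT1 (8.73 ± 0.84) led with overlapping ranges, then came GFRA2 (3.37 ± 0.62), NTRK3 (1.76 ± 0.17), NGFR (0.81 ± 0.28), NTRK2 (0.62 ± 0.27), RET (0.23 ± 0.064) and GFRA3 (0.20 ± 0.12), and the ranges of NGFR and NTRK2, and of RET and GFRA3, overlapped. In RA tumors GFRA1 and SORT1 again overlapped at the top, and NGFR (2.55 ± 0.73) and GFRA2 (2.47 ± 0.21) overlapped next. The merged exons of NTRK2 span 33.2 kb and its canonical transcript 8.67 kb. With canonical lengths, chosen after the values were seen, NTRK2 moved up in every group, to the third place in RA tumors (3.47 CPM per kb).

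The tumors ask whether the same receptors respond to retinoic acid in an animal. NGFR did: it was at 3.29, 4.41, 2.00, 4.63 and 2.46 CPM in control tumors 1 to 5 and at 15.1, 8.98, 8.88 and 9.24 CPM in RA tumors 1 to 4. All RA tumors lay above all control tumors, but how many of all genes have such a gap was not counted. The log2 fold change was 1.63 ± 0.25, or 3.10-fold (FDR 0.0108), and NGFR was the 1 of 7 tested members called, against 0.284% of all genes (0.246% higher and 0.0379% lower). Leaving out any of the 9 libraries gave 1.41 to 1.78 with every call kept, while a fit with the replicate number as a block gave 1.56 (FDR 0.0748). NGFR is also made by Schwann cells. Their marker sum was 12.7, 10.1, 11.3 and 11.7 CPM in RA tumors 1 to 4. In control tumors 1 to 5 it was 10.4, 9.91, 9.23, 10.5 and 8.17 CPM. RA tumor 2 thus had a lower sum than control tumors 1 and 4, with a higher NGFR level. Of the 6 tested Schwann cell genes 0 were called between the tumor groups by edgeR. With 0.284% of all genes called there, that count says little about them. The part of Schwann cells in the NGFR values was not tested. The expected count of NGFR was not a whole number in 7 of 9 tumor libraries and was whole in all 8 of culture.

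RET was at 2.59, 2.702, 2.00, 1.32 and 1.78 CPM in the control tumors and at 3.47, 5.15, 3.27 and 3.36 CPM in the RA tumors. The difference was 0.87 ± 0.22 (1.83-fold, FDR 0.0674) and was not called. The groups did not overlap, but how many of all genes have such a gap was not counted. The FDR of RET was 0.0132 with DESeq2 and 0.00674 with all 17 libraries in 1 fit. Without RA tumor 2 its log2 fold change was 0.69 (FDR 0.256 by edgeR). The fold stayed under 2 under every setting tried. GFRA2 was at 21.0, 15.3, 16.9, 19.8 and 24.4 CPM in control tumors and at 13.6, 13.0, 14.8 and 15.7 CPM in RA tumors. Its groups overlapped, and the log2 fold change was −0.45 ± 0.12 (FDR 0.0877). NTRK2 spread widely among the control tumors, with 15.4, 34.8, 23.9, 17.2 and 11.7 CPM against 27.9, 34.0, 25.9 and 32.4 CPM in RA tumors, and was at 0.54 ± 0.29 (FDR 0.425). GFRA1 (0.04, 95% interval −0.15 to 0.23), SORT1 (0.00, −0.17 to 0.16) and NTRK3 (−0.13, −0.32 to 0.06) had intervals that leave out changes as large as those of NGFR. GFRA3 had 4 to 15 counts in control and 7 to 17 counts in RA tumors and was not tested in this fit. In the same tumors RARB, a retinoic acid receptor gene that retinoids induce, rose from 3.59 ± 0.45 to 8.19 ± 1.24 CPM (log2 fold change 1.19 ± 0.15, FDR 0.00194). Of 6 listed retinoid response genes 5 were tested there, and RARB was the 1 called, against 0.284% of all genes. At 6 days in culture all 5 tested genes of that list were called higher, against 18.8% of all genes. The median of the 7 members was 0.04 and that of all genes −0.01.

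The drug (ATRA or 13-cis-retinoic acid, its stereoisomer), the dose, the route and the time all differed between culture and tumors. The study's text describes a dosing schedule of weeks and, for tumors in which the drug was measured, collection within weeks of the last dose. The interval of each sequenced tumor is not given, so a smaller effect in tumors is not read as a weaker response. The effects were set side by side and their difference was tested in a fit of all 17 libraries. For RET, the effect in tumors was smaller than that of 6 days in culture by a log2 difference of −4.15 ± 0.33 (FDR 3.04e-09), and for NGFR by −3.04 ± 0.41 (FDR 1.22e-05). For GFRA2 the difference was 2.97 ± 0.17 (FDR 1.54e-10), so its decrease was larger in culture. For GFRA3, at 0 counts at 6 days, the test called a difference as well (FDR 0.0101), but its fitted size depends on the prior count, and the call was lost without DMSO replicate 1 (FDR 0.0653) or ATRA 6 days replicate 2 (FDR 0.051). GFRA3 entered this fit through the tumor libraries, where it was higher, so its call is no support. The other members called were RET, NGFR and GFRA2, against 20.9% of all genes (7.78% with a positive and 13.1% with a negative difference). The median of all genes was −0.12. Against 1 day in culture, RET was the 1 of 8 members called (−1.46 ± 0.34, FDR 0.0293), against 0.558% of all genes (0.252% with a positive and 0.306% with a negative difference). That call was lost without DMSO replicate 1 (FDR 0.200), DMSO replicate 2 (FDR 0.175), ATRA 1 day replicate 1 (FDR 0.0898), ATRA 1 day replicate 2 (FDR 0.173) or RA tumor replicate 3 (FDR 0.0533). NGFR differed from its effect at 1 day by 0.45 ± 0.45 (FDR 0.791, 95% interval −0.49 to 1.40).

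Untreated tumors were also set against DMSO cells, where culture, host tissue and kit cannot be told apart. Of the 8 members 4 were called higher (RET, NTRK2, NTRK3 and NGFR) and 1 lower (GFRA2), against 42.9% of all genes called (31.5% higher and 11.4% lower) and with a median of all genes at 0.25 in log2. With so many of all genes called, these counts say little about the receptors as a set. GFRA2 was 9.26-fold lower (−3.21 ± 0.11, FDR 1.85e-14), and every tumor lay below the lowest DMSO library. NTRK2 was higher by a log2 fold change of 2.63 ± 0.38 (FDR 3.78e-05) and NTRK3 by 2.14 ± 0.11 (FDR 1.70e-12). NTRK3 was at 40.4 to 52.9 CPM in control tumors and 37.8 to 48.96 CPM in RA tumors, above every culture library. NGFR (1.74 ± 0.34, FDR 0.000196) and RET (1.32 ± 0.27, FDR 0.000178) were higher in tumors without drug than in DMSO cells. GFRA1 was at 101.3 to 134.5 CPM, 1.98-fold lower (−0.98 ± 0.09, FDR 1.03e-08), and it passed the fold threshold without control tumor replicate 5 (−1.02). SORT1 was at 0.03 ± 0.08 (FDR 0.719). Control tumor 4, with the highest fibroblast marker sum, was the highest of the 5 for NGFR and the lowest for RET, GFRA1 and SORT1. The part of that tissue in these values was not tested.

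RA tumors set against 6-day cells had less RET (−2.83 ± 0.19, FDR 5.17e-11), NGFR (−1.29 ± 0.23, FDR 0.000106) and GFRA1 (−1.08 ± 0.10, FDR 5.48e-09). NTRK2 (2.95 ± 0.38, FDR 1.61e-05) and NTRK3 (2.26 ± 0.12, FDR 1.36e-12) were higher in the tumors. GFRA3, with 47 counts over the RA tumors and 0 over the 6-day cells, was at least 9.79-fold higher. It entered this fit through the tumor libraries, where it was higher, so its FDR (8.94e-05 by edgeR) is no support. Apart from GFRA3, the members called were RET, NGFR, GFRA1, NTRK2 and NTRK3, while GFRA2 and SORT1 were not. Of all genes 41.6% were called (27.4% higher and 14.2% lower), with a median of 0.15. GFRA1 was at −0.99 with RLE scaling and lost its call. GFRA2 was at −0.24 ± 0.13 (FDR 0.101), so the 6-day cells and the tumors lay close for this gene.

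Most ligand genes of these receptors were scarce in culture. BDNF, the TrkB ligand, was at 1.31 and 0.97 CPM in DMSO, 1.21 and 1.70 CPM at 1 day, 6.73 and 7.82 CPM at 3 days and 68.8 and 70.8 CPM at 6 days. Its log2 fold change was 5.89 ± 0.10 at 6 days (FDR 4.84e-32), when the libraries overlapped those of DMSO for NTRK2. In tumors it was at 3.69 ± 0.94 CPM in controls and 4.15 ± 1.10 CPM in RA tumors (0.17 ± 0.22, FDR 0.771), and 12.8% of its exon bases are shared with BDNF-AS on the opposite strand. GDNF, the GFRA1 ligand, was at 0.00 to 0.94 CPM in all culture libraries, and at 10.6 to 23.6 CPM in control and 17.6 to 24.7 CPM in RA tumors. Its log2 fold change in control tumors against DMSO was 4.82 ± 0.56 (FDR 4.64e-06), and GDNF-AS1 overlaps 14.7% of its exon bases. ARTN, the GFRA3 ligand, had 1 count over both DMSO libraries, 14 at 1 day, 5 at 3 days and 30 at 6 days (FDR 1.26e-05 at 6 days). GDF15, a distant relative that signals through GFRAL and RET, rose by 3.27 ± 0.42 at 6 days (FDR 1.17e-08), to 1.61 ± 0.058 CPM. PSPN, the GFRA4 ligand, was at 7.20 ± 0.51 CPM in DMSO and 10.1 ± 0.52 CPM at 6 days (0.45 ± 0.10, FDR 0.000184, not called). NRTN, the GFRA2 ligand, had 4 to 10 counts per culture group and 48 over the control tumors. NTF3 had 0 to 7 counts in every group. NTF4, which overlaps other genes, was at most at 0.36 CPM in any library. In RA against control tumors the ligand genes GDNF, PSPN and BDNF were tested and none of them was called.

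**Figure D4:**
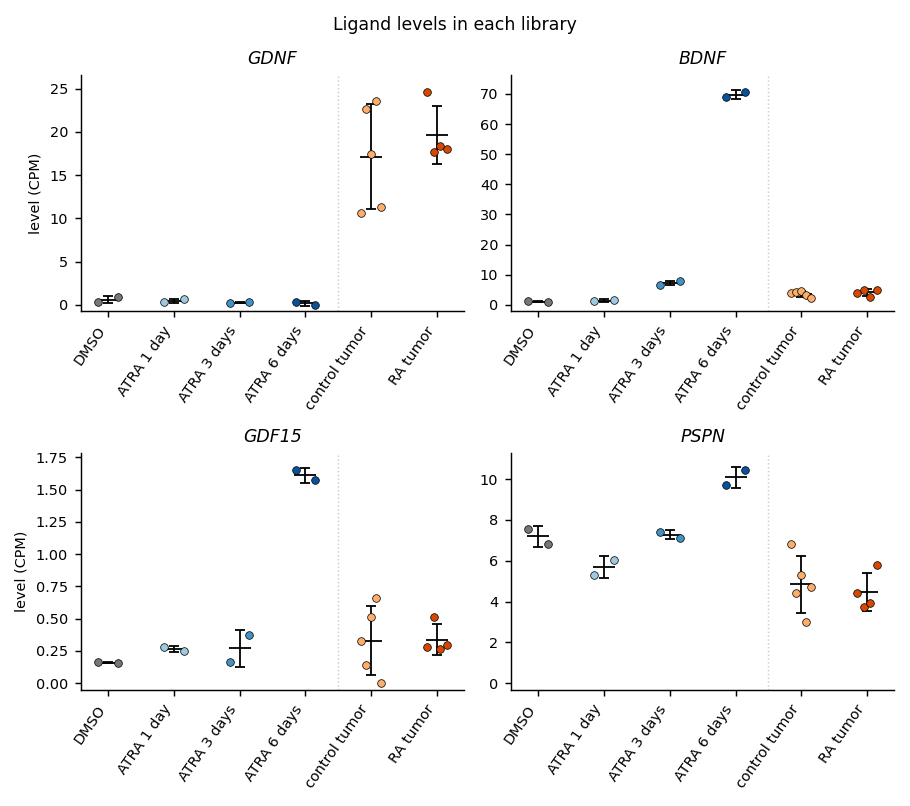
TMM-scaled CPM of the ligand genes GDNF, BDNF, GDF15 and PSPN in each library (points), with group means and SDs, on separate linear axes. BDNF and GDF15 are highest at 6 days of ATRA, while GDNF is near 0 in culture and present in both tumor groups.

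Other receptors of these systems rose with RET and NGFR at 6 days. Of 12 further receptors and co-receptors 10 were tested (median 1.58, all genes 0.04). Of these 6 rose and 0 fell, against 18.8% of all genes up and 12.3% down. SORCS3 (4.12 ± 0.24, FDR 1.23e-17) and SORCS2 (3.08 ± 0.15, FDR 9.56e-20), both relatives of sortilin, led those that rose. SORL1, another of that family, rose from 22.6 ± 1.18 to 89.0 ± 0.39 CPM (1.95 ± 0.05). LINGO1, a partner of p75 in the receptor for myelin inhibitors, rose by 2.04 ± 0.09 (FDR 8.05e-22). SDC3, a surface proteoglycan that binds GDNF, rose by 1.94 ± 0.03 and LRIG1, which restrains RET and other kinases, by 1.22 ± 0.07. A further relative of sortilin in the list, SORCS1, named after its values were seen, was not called (0.57 ± 0.03, FDR 2.09e-17), and SORT1 itself was at 0.10. In RA against control tumors 0 of 10 were called by edgeR, against 0.284% of all genes. SORCS2 (0.66 ± 0.14, FDR 0.0263) and LINGO1 (0.50 ± 0.10, FDR 0.0274) had an FDR under 0.05 there at less than 2-fold.

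Downstream genes moved in both directions at 6 days. Of 23 tested adaptors and transducers 5 rose and 2 fell (median 0.22), against 18.8% of all genes up and 12.3% down, so neither count stood far from that of all genes. SHC4 (2.55 ± 0.22, FDR 8.42e-13) and SHC2 (2.03 ± 0.04, FDR 3.04e-32), which carry signals from Trk and RET kinases to RAS, PIK3R1 (1.37 ± 0.03), a subunit of PI3-kinase, and the docking protein gene GAB2 (1.16 ± 0.05) rose. DOK6, an adaptor that binds RET, was among those that fell (−1.39 ± 0.06, FDR 5.37e-22). Of 13 partners and proteases of p75 0 rose and 1 fell, the kinase gene RIPK2 (−1.22 ± 0.15, FDR 2.79e-09; median of the list 0.11). Of 20 ERK target and feedback genes 7 rose and 2 fell (median 0.27), and the shares of all genes, 18.8% and 12.3%, apply to these lists too. ETV1 (5.90 ± 0.05, FDR 8.47e-45) and ETV5 (3.21 ± 0.17, FDR 2.59e-19), transcription factor genes of the PEA3 family, rose with the feedback inhibitors SPRED3 (2.71 ± 0.11) and DUSP6 (1.97 ± 0.26). FOSL1, an AP-1 subunit, had 5 counts over the DMSO and 0 over the 6-day libraries, and its call (FDR 0.0426) was lost with DESeq2 and without DMSO replicate 1 or either ATRA 6 days library. ETV5 was high at 1 and 6 days and back near DMSO between them, at 1.10 ± 0.21 CPM in DMSO, 5.84 ± 0.78 at 1 day, 1.006 ± 0.16 at 3 days and 10.4 ± 1.14 at 6 days. DUSP6 was at 0.53 ± 0.14, 2.66 ± 0.095, 1.44 ± 0.25 and 2.17 ± 0.07 CPM. In RA against control tumors, 0 of 23 adaptors, 0 of 13 partners and 0 of 20 ERK genes were called by edgeR, with medians of 0.08, −0.01 and 0.21. With 0.284% of all genes called there, counts of 0 in lists of this size say little about them.

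HOXB5, a transcription factor known to act on RET in development, rose from 0 counts in DMSO and at 1 day to 11 counts at 3 days and 264 counts at 6 days, at least 98.3-fold above DMSO. The part of this factor in the change of RET was not tested.

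Among 25786 other genes, those with a course most like a member over the 17 libraries were ranked by Pearson's r of log2 CPM (prior count 2), as a description, since the libraries share groups, kits and depth. For RET they were NFASC (r = 0.955), ASIC1 (0.950), DNAJC16 (0.946), PCDH1 (0.941) and SYT11 (0.940). NFASC, which encodes a cell adhesion protein of axons, was at 84.9 ± 4.42 CPM in DMSO, 1045 ± 21.0 at 6 days, 136.1 ± 19.7 in control and 218.4 ± 6.49 in RA tumors. For NGFR they were JARID2 (0.970), PARP9 (0.958), LINC02688 (0.957), MAML3 (0.942) and CABP7 (0.938). For GFRA2 they were TUBB6 (0.994), TLNRD1 (0.992), CDK4 (0.991), CPSF7 (0.990) and RPRD1B (0.990). CDK4, a kinase of the cell cycle, was at 195.3 ± 5.50 CPM in DMSO, 69.7 ± 1.48 at 6 days, 73.4 ± 4.21 in control and 64.2 ± 7.95 in RA tumors. Within the 9 tumors alone r was 0.925 for NFASC with RET, 0.883 for JARID2 with NGFR and 0.634 for CDK4 with GFRA2.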

How the data were processed

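The deposited tables hold expected counts for each gene, not normalized, which the authors made with RSEM 1.3.3; the submitters' processing notes also name Trim Galore 0.4.4, STAR 2.7.10a and the build hg38. Culture libraries were made with an Illumina stranded total RNA kit and tumor libraries with a KAPA kit. The gene annotation and strand setting are not given in the sources used here. Counts were rounded to whole numbers. Genes passed filterByExpr (minimum count 10), which left 20237 in culture, 21098 in tumors and 25787 in all libraries. TMM scaling and the quasi-likelihood test of edgeR 4.0.16 (R 4.3.3, robust, 1 mean per group) were run on the 8 culture, 9 tumor or all 17 libraries, the last for comparisons of tumors with cells. The biological coefficient of variation was 2.65%, 13.9% and 10.9%. The edgeR test was tried on simulated data for 6 days of ATRA against DMSO in culture and for RA against control tumors. The fit of all 17 libraries and the alternatives were not tried in this way. Gene models came from GENCODE 44. Members, lists and tests were chosen with earlier results of these data known. The text names the 8 members, all ligand genes, up to 5 called genes per other list (largest change at 6 days or in RA tumors) and the 5 genes most like RET, NGFR and GFRA2; LRIG1 was added after its values were seen, and some genes of the lists are not reported here. Depth limits genes under about 10 counts, and floors of 3 counts cover counting error only. Alternatives were RLE scaling, DESeq2 1.42.0, no filter, the replicate number as a block, each library left out, all libraries in 1 fit and canonical transcript lengths.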

Additional observations from a re-analysis of the deposited data

Results flagged for a closer look

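RET in RA tumor 2 stood at 5.15 CPM, apart from the other 3 RA tumors at 3.27 to 3.47 CPM (the gap to the nearest was 0.895 of the group's range). NGFR in RA tumor 1 stood at 15.1 CPM, apart from the others at 8.88 to 9.24 CPM (0.942 of the range). These are different tumors, and chance alone sets apart about 1 in 20 of such groups; 16 pairs of gene and tumor group were examined and 2 stood out. Without RA tumor 1 the log2 fold change of NGFR was 1.41 (FDR 0.0183 by edgeR), and without RA tumor 2 that of RET was 0.69 (FDR 0.256).

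The effect of the retinoid in tumors differed from that of ATRA in culture for 4 genes, by edgeR's test of the difference in the fit of all libraries. The log2 difference was −1.46 for RET against 1 day (FDR 0.0293), and against 6 days it was −4.15 for RET (FDR 3.04e-09), 2.97 for GFRA2 (FDR 1.54e-10), 5.41 for GFRA3 (FDR 0.0101) and −3.04 for NGFR (FDR 1.22e-05). The value of GFRA3 rests on 11 counts in DMSO and 0 at 6 days, and its size depends on the prior count. GFRA3 entered this fit through the tumor libraries, where it was higher, so its FDR is no support.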

How the results depend on the processing

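Of the named genes' values under other settings, 1163 kept direction and side of the threshold, 22 lost a call, 10 gained one and 23 changed sign; of the counts of called genes, 190 stayed within 1.5 times and 38 did not. The cause of each change was not tested. At 1 day DESeq2 called 228 genes up and 80 down and the fit of all 17 libraries 187 and 50, against 394 and 160. From 1 to 3 days DESeq2 called 359 and 152 and the fit of all libraries 293 and 132, against 580 and 247. In RA against control tumors, with 52 up and 8 down, DESeq2 called 17 down, no filter gave 94 and 30, the fit of all libraries 110 and 47, and leaving out 1 library 24 to 131 up and 0 to 29 down, with the lowest of both without RA tumor 2 and the highest without RA tumor 4. For the difference of the effect in tumors from that at 1 day, with 65 and 79, DESeq2 called 119 up, and leaving out 1 library gave 26 to 105 up and 40 to 102 down.

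Same-numbered replicates did not deviate together (r of −0.025 to 0.0115 in culture and −0.334 to 0.108 in tumors), so the numbers were not taken to pair the samples. With the replicate number as a block, RA against control tumors gave 11 genes up and 1 down, the NGFR call was lost (1.56, FDR 0.0748 by edgeR) and so was that of RARB (1.17, FDR 0.0608). With the block SORT1 in RA tumors was at 0.00502 and the difference of GFRA3 from 1 day at −0.13.

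Sign changes were otherwise of values near 0. SORT1 in RA tumors was at 0.0132 with no filter and 0.00409 with all libraries in 1 fit, SORT1 in control tumors against DMSO at −0.0600 with no filter, and the difference of GFRA1 from 6 days at 0.00812 with no filter. Leaving out 1 library gave −0.0533 to 0.397 for NTRK2 at 6 days, −0.0573 to 0.0366 for SORT1 from 1 to 3 days, and −0.655 to 0.522 for the difference of GFRA3 from 1 day. In RA against control tumors it gave −0.00875 to 0.106 for GFRA1, −0.0358 to 0.0422 for SORT1 and −0.258 to 0.0437 for PSPN, and in control tumors against DMSO −0.00620 to 0.0911 for SORT1. The call of GFRA3 against 6 days was lost without DMSO replicate 1 (4.65) or ATRA 6 days replicate 2 (5.40), and in control tumors against DMSO GFRA3 was called without control tumor 1 (1.45) or 5 (1.48). GDNF at 6 days was called without DMSO replicate 1 (−2.40), ATRA 6 days replicate 1 (−7.34) or the filter (−1.81). NTRK2 at 1 day was called without DMSO replicate 1 (1.02). GFRA1 was called in control tumors against DMSO with no filter (−1.08) or the block (−1.18), and lost its call in RA tumors against 6 days with DESeq2 (−0.99) or without RA tumor 1 (−0.98).

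With canonical transcript lengths, added after seeing the data, 2 of the 8 members changed place in DMSO, 4 at 1 day, 3 at 3 days, 2 at 6 days, 3 in control tumors and 4 in RA tumors. Depth limits GFRA3 and most ligand genes, which had few counts.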
